A study of Rattus norvegicus with 4 samples.

Results

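Iron handling genes were followed through 4 RNA sequencing libraries of the rat: TF (transferrin), TFRC (transferrin receptor), FTH1 and FTL1 (ferritin heavy and light chain), SLC11A2 (the divalent metal transporter DMT1) and SLC40A1 (ferroportin). They were looked up among the 2452 of 32883 gene IDs that the gene lists published with the data pair with a name. Of the 6 genes, 4 were found, TF, FTH1, SLC11A2 and SLC40A1, while TFRC and FTL1 were not analysed here.

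The study profiled the transcripts of the choroid plexus, the epithelium in the brain ventricles that secretes cerebrospinal fluid. All rats were Sprague Dawley rats 9 weeks old, and no treatment or genetic change is named for any group. The first library came from the choroid plexus of 5 male rats, taken from the lateral and 4th ventricles, and another from that of 5 female rats. The FACS library held cells of male choroid plexus freed with collagenase, sorted with an antibody to NKCC1, a cotransporter of the epithelial cells, and pooled from 10 rats. The fourth library held kidney proximal tubules of 5 male rats, freed with collagenase and pronase and picked by hand. Each condition is therefore 1 pooled library, so that no spread between animals can be set beside a difference. By the study's methods the kidneys were those of the male rats, so that these tubules and the male choroid plexus would share their animals, although the labels do not tie the pools to animals. Sex and sorting cannot be told apart from the pool of rats, nor organ from the single library of each, and no p-value is given. Sorting and organ also go with enzyme digestion, which is not described for whole choroid plexus.

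Iron travels in plasma and cerebrospinal fluid bound to transferrin. The transferrin receptor takes the loaded protein into endosomes, where iron is freed, reduced and moved into the cytosol by DMT1. Ferritin stores the iron, with the heavy chain oxidising it, and ferroportin is the known route by which iron leaves a cell. Choroid plexus epithelium is a long-known site of transferrin synthesis in the brain, and the proximal tubule takes up transferrin from the filtrate.

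The libraries held 23873318 to 28324976 expected counts, the read numbers that RSEM assigned to each gene. Of the proximal tubule counts, 70.74% lay in the 13 mitochondrially encoded genes, which left 7352952 counts for all other genes, against 4.317 to 5.337% in these genes in the libraries of choroid plexus. Levels are given in TPM, which are scaled for transcript length and add to 1000000 in each library, and a gene was taken as transcribed from 0.5 TPM, the level the study uses. Intervals are exact 95% Poisson intervals of the counts and cover counting error only. All 12 choroid plexus markers, TTR (transthyretin) among them, were named, and they added up to 254230 to 399459 TPM in the choroid plexus libraries and to 80.7 TPM in the proximal tubule, where 7 of the 12 were listed at 0. Most of these sums came from 1 gene, TTR with 238565 to 389655 TPM in the choroid plexus libraries and PRLR with 56.6 TPM in the proximal tubule. The 6 named proximal tubule markers of 8 added up to 3001 TPM in the proximal tubule and to 13.8 to 20.1 TPM in the other libraries.

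TF was transcribed at 5952 TPM (5931 to 5974) in male choroid plexus, at 5175 TPM (5155 to 5195) in female choroid plexus and at 7449 TPM (7425 to 7472) in the FACS epithelial cells. These levels rested on 300223, 256269 and 395525 counts and put TF in place 14, 14 and 9 of all genes. In the proximal tubule TF was listed at 0, and at that depth 3 counts would have been worth 0.0338 TPM. TF was the highest of the 4 iron handling genes in every choroid plexus library and the only one listed at 0 in the proximal tubule.

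FTH1, which encodes the ferritin chain with the iron-oxidising site, was next in order. Its level was 3123 TPM (3094 to 3153) in male choroid plexus, 2835 TPM (2806 to 2863) in female choroid plexus, 2136 TPM (2112 to 2161) in the FACS epithelial cells and 234.9 TPM in the proximal tubule. With the mitochondrially encoded genes taken out and the rest rescaled, the proximal tubule level was 842 TPM (819 to 867) against 3409 TPM in male choroid plexus. FTH1 stood in place 21, 22, 25 and 207 of all genes in the 4 libraries, and was the highest of the members in the proximal tubule.

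SLC11A2 lay far lower, at 47.0 TPM (45.4 to 48.7) in male choroid plexus, 40.3 TPM (38.7 to 41.8) in female choroid plexus, 33.1 TPM (31.8 to 34.4) in the FACS epithelial cells and 0.61 TPM (0.44 to 0.82) in the proximal tubule. The counts behind these levels were 3277, 2580, 2416 and 42. SLC11A2 was thus in place 2358 to 2594 in the choroid plexus libraries and in place 4900 in the proximal tubule. Without mitochondrially encoded genes its level there was 2.19 TPM (1.58 to 2.96), against 51.3 TPM in male choroid plexus.

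SLC40A1 was the lowest of the members in the choroid plexus libraries, but not in the proximal tubule. It was listed at 0.13 TPM (0.03 to 0.35) in male choroid plexus, 1.08 TPM (0.73 to 1.54) in female choroid plexus, 0 in the FACS epithelial cells and 1.13 TPM (0.84 to 1.49) in the proximal tubule. Its counts were 3.60, 30.35, 0 and 49. The female and proximal tubule intervals overlap with mitochondrially encoded genes kept, but not without them, at 1.15 TPM (0.78 to 1.64) and 4.05 TPM (3.0 to 5.4). For the 0 of the FACS library the upper limit of the interval is 3.69 counts, and 3 counts would have been worth 0.0998 TPM. These values depend on how reads were divided between gene IDs.

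**Figure D1:**
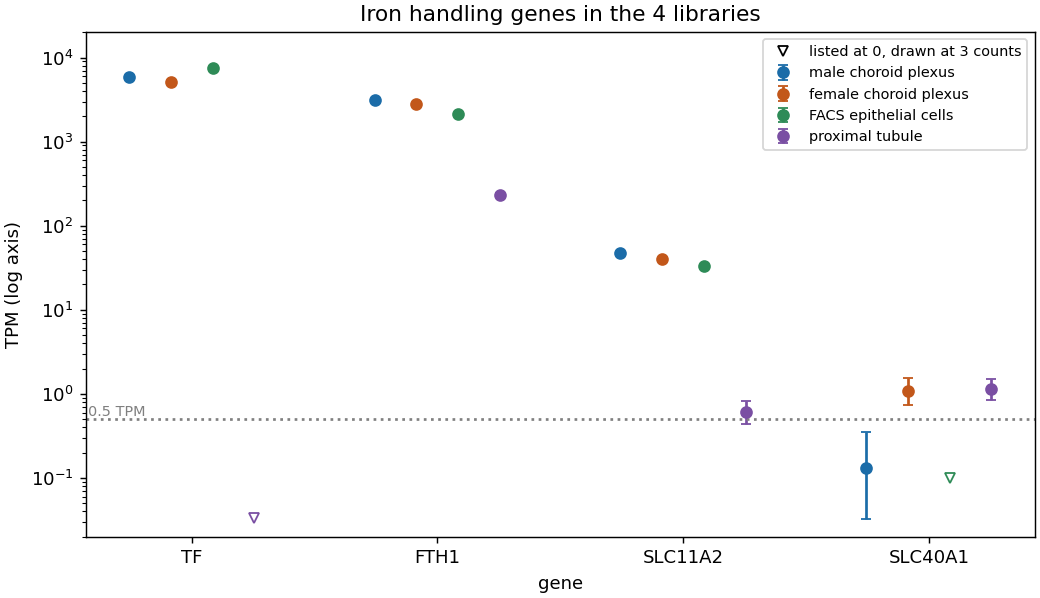
Level in TPM (log axis) of TF, FTH1, SLC11A2 and SLC40A1 in each of the 4 libraries, with exact 95% Poisson intervals of the counts as bars, and open triangles, drawn at the level of 3 counts, for genes listed at 0. In the choroid plexus libraries the order TF, FTH1, SLC11A2, SLC40A1 holds throughout, while TF is listed at 0 in the proximal tubule.

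The length by which RSEM divides the counts of a gene is an average over its transcripts, weighted by their abundance, and it shows where the mix of transcripts differs. After the offset common to all genes of a library was taken off, it was 557.98 bases for FTH1 in all 4 libraries and 2055 to 2059 bases for TF in the 3 choroid plexus libraries. For SLC11A2 it was 2844 bases in male choroid plexus, 2663 in female choroid plexus, 2822 in the FACS epithelial cells and 1853 in the proximal tubule. The reads of SLC11A2 were therefore spread over its transcripts in unequal proportions, with the shortest mean in the proximal tubule, where it rests on 42 counts. Which transcripts these are is not given by values per gene. Such differences were not particular to SLC11A2. Of genes at 0.5 TPM or more in both libraries, and over 500 bases, 83.4% kept their male length within 10 bases in the female library. The share was 80.2% in the FACS epithelial cells and 75.8% in the proximal tubule.

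RefSeq lists 2 start sites for SLC11A2 on the rat assembly GRCr8, 1151 bases apart, and 1 each for TF and SLC40A1. The 250 bases before the starts of TF and of SLC11A2 are printed here, TF as the gene with the highest level and SLC11A2 because its mix of transcripts differed between libraries. GRCr8 is not the build to which the reads were mapped. The TF window is chr8:112695377-112695626 on the minus strand, the upstream SLC11A2 window is chr7:133418940-133419189 and the downstream one chr7:133417789-133418038, both on the minus strand. Capitals mark the TATA box letters TATAAA, which were searched on both strands.
TF: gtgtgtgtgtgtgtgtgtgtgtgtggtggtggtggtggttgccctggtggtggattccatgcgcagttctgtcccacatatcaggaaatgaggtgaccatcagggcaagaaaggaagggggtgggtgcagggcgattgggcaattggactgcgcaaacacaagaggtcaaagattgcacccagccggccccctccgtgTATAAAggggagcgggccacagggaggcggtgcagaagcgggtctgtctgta
SLC11A2, upstream start: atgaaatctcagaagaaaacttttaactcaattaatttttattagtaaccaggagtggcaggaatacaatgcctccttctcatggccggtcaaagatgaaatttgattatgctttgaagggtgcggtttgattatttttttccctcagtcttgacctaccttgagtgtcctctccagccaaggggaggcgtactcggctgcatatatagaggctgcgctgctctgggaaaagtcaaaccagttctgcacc
SLC11A2, downstream start: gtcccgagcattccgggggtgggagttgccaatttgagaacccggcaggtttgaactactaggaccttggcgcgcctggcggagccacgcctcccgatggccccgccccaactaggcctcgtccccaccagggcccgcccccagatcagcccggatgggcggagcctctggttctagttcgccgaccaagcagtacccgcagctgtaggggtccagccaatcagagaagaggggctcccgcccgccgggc
TATAAA was found once in the TF window, beginning 52 bases before the start, and in neither SLC11A2 window nor in that of SLC40A1 (chr9:55543461-55543710, minus strand). Variants of these letters were not searched, and the upstream SLC11A2 window holds the similar letters tatata. Of all 33469 RefSeq windows of this length, 4328, or 12.9%, held these letters on either strand. The upstream SLC11A2 window had a GC content of 43.6% and the downstream one of 68.0%, against 58.4% for TF and 74.0% for SLC40A1.

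The SLC40A1 values are uncertain because some of its reads appear to have been shared with another ID. The expected count of SLC40A1 was not whole in male and female choroid plexus, as happens where reads fit more than 1 gene. Of 1121 other IDs with fractional counts in both of these libraries, 1, ENSRNOG00000003872, had decimals that added up to a whole number with those of SLC40A1 in both, within 0.005 counts. This ID has no name in the lists used here and was singled out after its values had been seen. The match of decimals is the only ground for pairing it with SLC40A1, and sequences were not compared.

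ENSRNOG00000003872 held 403.4 counts in male choroid plexus, 324.65 in female choroid plexus, 250 in the FACS epithelial cells and 0 in the proximal tubule. SLC40A1 took 0.885% of the summed count of both IDs in male choroid plexus (0.268 to 2.50%, Clopper-Pearson), 8.55% in female choroid plexus (5.77 to 11.8%), 0% in the FACS epithelial cells and 100% in the proximal tubule. The sums were 407, 355, 250 and 49 counts. How many of these reads fit both IDs cannot be read from the counts.

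Added together, the pair stood at 5.68 TPM in male choroid plexus, 5.63 TPM in female choroid plexus, 3.26 TPM in the FACS epithelial cells and 1.13 TPM in the proximal tubule. Without mitochondrially encoded genes the sums were 6.20, 6.01, 3.47 and 4.05 TPM. Every library then had a summed level above 0.5 TPM, and the male and female levels lay next to each other. The reads alone do not say what share belongs to ferroportin.

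**Figure D2:**
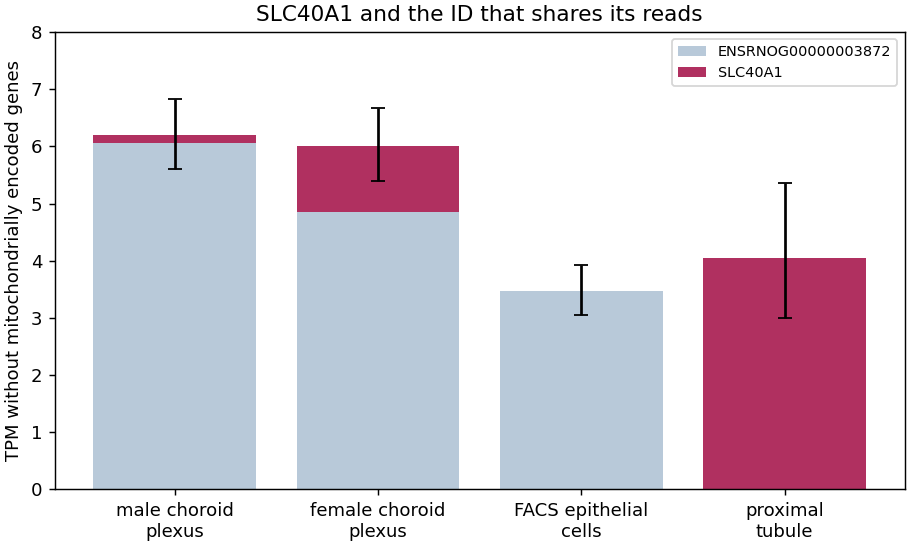
Stacked level in TPM, without mitochondrially encoded genes, of SLC40A1 and of the ID with which it appears to share reads in each library, with exact 95% Poisson intervals of the summed counts. SLC40A1 holds 0.885% of the summed counts in male choroid plexus, 8.55% in female choroid plexus, 0% in the FACS epithelial cells and 100% in the proximal tubule.

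Between male and female choroid plexus, TF, FTH1 and SLC11A2 stood at nearly the same levels, whereas SLC40A1 as listed did not. A gene was counted as different from 2-fold on log2(TPM + 1), a scale that understates the change of low genes, among genes at 0.5 TPM or more in either library. Of the 4 members, 0 were 2-fold higher in the female library, where 0.44% of all 13869 genes were, and 0 were 2-fold lower, where 0.959% were. The female library had a median log2 ratio of -0.16 over all genes, so small shifts downward are shared by most genes.

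TF was 0.869 times as high in the female as in the male library (0.865 to 0.874), a log2 ratio of -0.20. For SLC11A2 the ratio was 0.856 (0.813 to 0.902), or -0.22. FTH1 had a ratio of 0.908 (0.895 to 0.920), or -0.14, which is 0.02 above the median of all genes. All of these lie within 0.07 of that median on the log2 scale.

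SLC40A1 as listed was 8.31 times as high in the female library (2.80 to 35.5), from 3.60 and 30.35 counts, but 0.88 on log2(TPM + 1) and so short of 2-fold on that scale. Even so, only 0.548% of all genes had a higher log2 ratio. Summed with ENSRNOG00000003872, the ratio was 0.991 (0.857 to 1.15). The summed counts of both IDs thus showed no difference beyond counting error, but most of them were given to the unnamed ID. The sum is therefore not a level of SLC40A1.

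A wider list of 54 iron genes, the members included, held 30 with a name, of which 0 were 2-fold higher and 0 were 2-fold lower in the female library, with log2 ratios from -0.43 to 0.88. The lowest ratio was that of SLC39A14, a metal importer of the ZIP family, at 9.46 against 13.1 TPM. HFE, the haemochromatosis protein that binds the transferrin receptor, stood at 111 and 129 TPM, and STEAP1, of the metalloreductase family, at 119 and 118 TPM. Red cell markers (5 of 6 named) added up to 4338 TPM in the female and 8648 TPM in the male library, and macrophage markers (4 of 9) to 544 and 837 TPM. The part of blood or macrophages in these ratios was not tested.

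The FACS epithelial cells were compared with male choroid plexus to see which transcripts go with the epithelial cells. TF was 1.25 times as high in the FACS epithelial cells (1.245 to 1.257), a log2 ratio of 0.32, while FTH1 was 0.684 times (0.674 to 0.694) and SLC11A2 0.703 times as high (0.667 to 0.741). Of the 3 members at 0.5 TPM or more in either library, 0 were 2-fold higher, against 4.61% of all 14024 genes, and 0 were 2-fold lower, against 25.5%. SLC40A1, at 0 and 3.60 counts, was below 0.5 TPM in both and was not compared. With ENSRNOG00000003872 added, the ratio was 0.574 (0.488 to 0.673).

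The median log2 ratio over all genes was -0.58 in this comparison. Against that median TF stood 0.91 higher, with 12.8% of all genes above it, whereas FTH1 (0.03) and SLC11A2 (0.09) lay on it, so that their lower TPM turned slightly positive when all genes were centred. TTR stood at 389655 TPM in the sorted cells against 238565 TPM in the tissue, and so took up a larger part of the fixed total. With the 10 highest genes of each library left out, FTH1 had a log2 ratio of -0.14 and SLC11A2 of -0.10, and TF, being among those genes, has no value.

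Ratios within a library do not depend on the total. TF was 1.91 times as high as FTH1 in male choroid plexus, 1.83 times in female choroid plexus and 3.49 times in the FACS epithelial cells. FTH1 was 66.4, 70.4 and 64.6 times as high as SLC11A2. The sorted cells thus differed from the tissue in TF against FTH1, and far less in FTH1 against SLC11A2. TF against TTR, another secreted carrier of the epithelium, was 0.0250 in male choroid plexus, 0.0181 in female choroid plexus and 0.0191 in the FACS epithelial cells.

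Markers differed as well. Of the 12 choroid plexus markers, 0 were 2-fold higher and 5 were 2-fold lower in the FACS library than in male choroid plexus, with a median log2 ratio of -0.62 beside the -0.58 of all genes. The 4 named macrophage markers of 9 (CSF1R, CD74, CX3CR1 and LYZ2, none at 0) added up to 4585 TPM in the FACS library against 837 TPM in male choroid plexus, and 3 of the 4 were 2-fold higher, CD74 with 2556 against 345 TPM. Red cell markers added up to 1659 against 8648 TPM, and the 5 named endothelial markers of 9 to 254 against 171 TPM. In such bulk samples more cells of a type and more RNA per cell cannot be told apart.

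Of 29 iron genes compared, 1 was 2-fold higher in the FACS epithelial cells and 7 were 2-fold lower, or 3.45 and 24.1%, against 2.33 and 25.6% of all genes with a name. The median of the 29 was -0.50. With the 10 highest genes left out, or centred on the median of all genes, 0 iron genes were 2-fold lower, with 2 higher when centred, and 2 were lower in CPM, which do not take length into account.

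SLC11A1 (NRAMP1), the metal transporter of macrophage phagosomes and nearest relative of SLC11A2, was the gene that was higher, at 21.8 TPM in the FACS epithelial cells against 4.77 in male and 3.63 in female choroid plexus. It was 4.56 times as high as in male choroid plexus (3.79 to 5.52), from 493 and 149 counts. Its length after the common offset was 887 bases in the FACS epithelial cells and 1274 in male choroid plexus, which enters this ratio. SLC11A2 was 9.86 times as high as SLC11A1 in male and 11.1 times in female choroid plexus, and 1.52 times in the FACS library. SLC11A1 moved with the macrophage markers above, whose part in the result was not tested.

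The 10 genes of the transferrin cycle and metal uptake, SLC11A1 and the ZIP importers included, had a median log2 ratio of -0.21, and 8 of the 10 lay above the -0.58 of all genes. SNX3 and VPS35, which return transferrin receptor from endosomes to the surface, were lower, at 117 against 293 TPM and 26.6 against 58.0 TPM. HFE (110 against 129 TPM), STEAP1 (131 against 118 TPM) and STEAP2 (61.0 against 70.1 TPM) were within 2-fold. SLC39A8, a metal importer of the ZIP family, was at 1.52 against 0.77 TPM and SLC39A14 at 8.85 against 13.1 TPM.

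Around ferritin, NCOA4, the receptor that delivers ferritin to lysosomes, was at 24.8 TPM in the FACS epithelial cells against 59.9 TPM, and PCBP2, an iron chaperone, at 59.6 against 142 TPM. FTH1 was therefore 86.1 times as high as NCOA4 in the sorted cells and 52.2 times in male choroid plexus. FBXL5, the iron sensor of the ligase that removes an iron regulatory protein, was at 37.2 against 95.6 TPM. NFS1, the cysteine desulphurase of iron-sulphur cluster assembly, and FDX1, a ferredoxin, completed the 7 lower genes, at 35.4 against 84.0 TPM and 30.7 against 81.0 TPM.

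The other iron genes were within 2-fold. BMP6, which in the liver induces the iron hormone hepcidin, was at 40.8 against 77.5 TPM. All 5 haem genes were within 2-fold, from ABCB6, a porphyrin transporter, at 22.8 against 24.1 TPM to UROD, an enzyme of haem synthesis, at 69.7 against 102 TPM. SLC22A17, described as a receptor for the siderophore carrier lipocalin, had the second highest level after TF among the iron genes with a name in the sorted cells, with 2642 TPM against 2396 TPM in male choroid plexus.

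**Figure D3:**
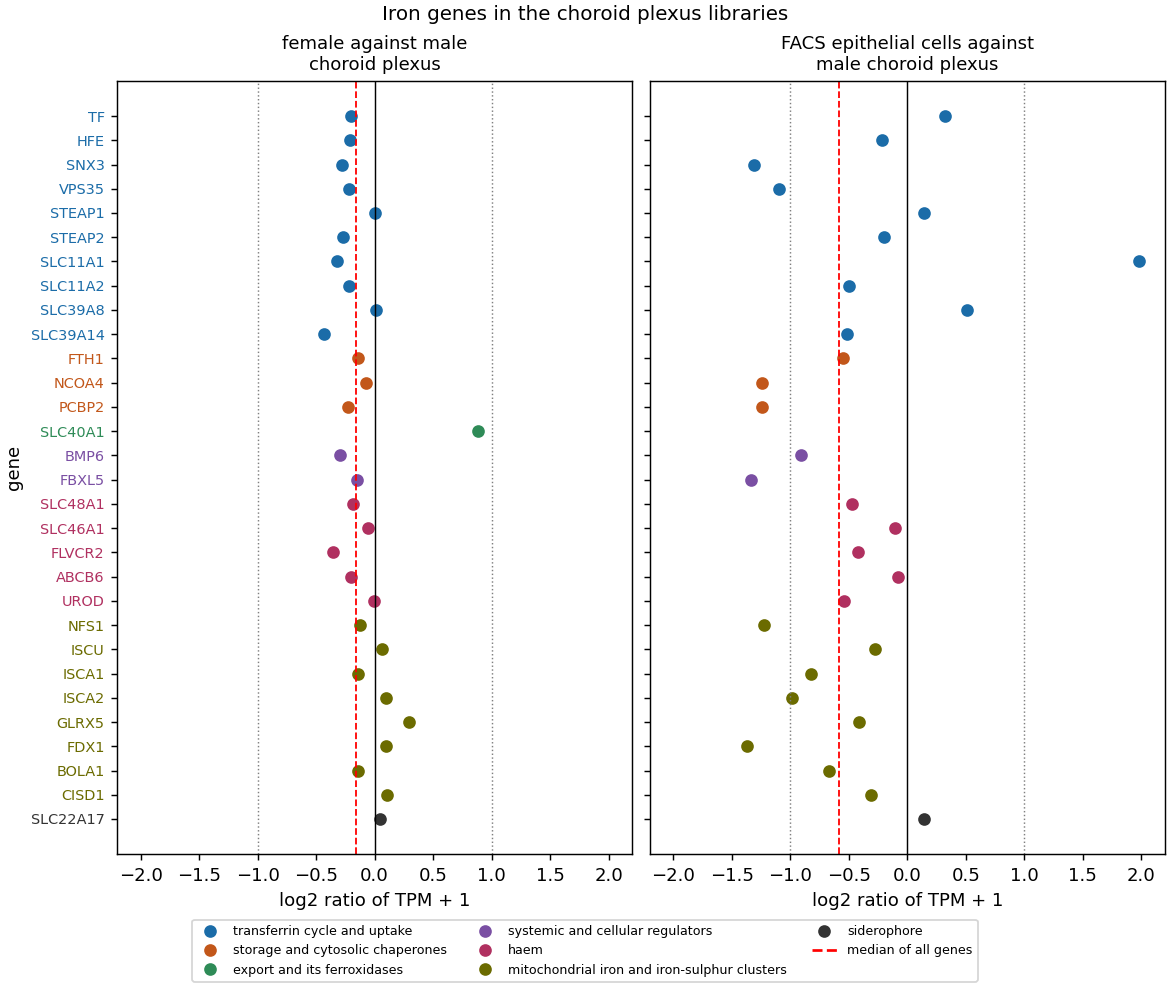
Log2 ratio of TPM + 1 of each named iron gene in female choroid plexus (left) and in the FACS epithelial cells (right), each against male choroid plexus, coloured by role, with 2-fold as dotted lines and the median of all genes as a dashed line. In the right panel SLC11A1 is past 2-fold upward and 7 genes are past it downward, of which 0 are past it when ratios are taken from the dashed line.

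The proximal tubule served the study as another transporting epithelium. Compared without mitochondrially encoded genes, 3 of the 4 members were 2-fold lower than in male choroid plexus, among 71.0% of all 14227 genes, and 1 was 2-fold higher, among 12.1%. The median log2 ratio over all genes was -2.27, and the lower members are to be read against it.

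FTH1 was 4.05 times lower in the proximal tubule (3.93 to 4.17), a log2 ratio of -2.02, which lies 0.26 above the median of all genes, so that its direction turned when all genes were centred. SLC11A2 was 23.5 times lower (17.3 to 32.6), 1.77 below the median of all genes. TF was listed at 0 against 6496 TPM, and no fold is given. FTH1 was 385 times as high as SLC11A2 here, against 64.6 to 70.4 times in the choroid plexus libraries.

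SLC40A1 as listed was 28.6 times higher in the proximal tubule (10.0 to 120), with 4.05 against 0.142 TPM. Summed with ENSRNOG00000003872, the level was 0.654 times as high (0.476 to 0.881), a log2 ratio of -0.51, and the direction was reversed. SLC11A2 was 0.540 times as high as that sum in the proximal tubule and 7.15 to 10.1 times as high in the choroid plexus libraries.

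The proximal tubule library had an unusual spread of counts, which bears on the low members. Of its 6263 genes with a count, 7.01% had 1 to 29 counts, against 19.0 to 24.0% in the choroid plexus libraries, and 34.5% had 30 to 99 counts, against 10.3 to 12.6%. From 10 to 19 counts there were 90 genes, and from 40 to 49 counts 504 genes, while in male choroid plexus the numbers were 800 and 339. SLC11A2, with 42 counts, and SLC40A1, with 49, lay in this crowded range, as did ABCB6, with 49. Low counts in this library do not follow the decline seen in the other libraries, and the counting intervals do not cover that.

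Listed zeros were common as well. Of the genes with a name, 980 of 2452 were listed at 0 in the proximal tubule, against 21 to 43 in the other libraries. Most of the lists that give names hold genes transcribed in choroid plexus, so few zeros there follow from the choice of genes. Over all gene IDs, 6263 had at least 1 count in the proximal tubule, against 15379 to 16692 in the choroid plexus libraries. PSAP, the precursor of the saposins of lysosomes and a gene most cells use, was among them, at 6482 TPM in male choroid plexus, so a listed 0 is not read as absence of TF.

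**Figure D4:**
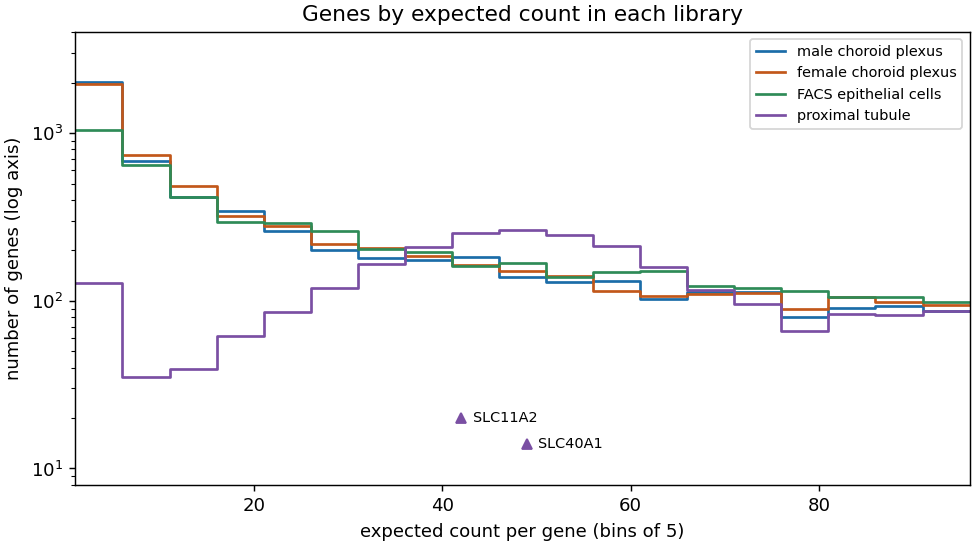
Number of genes (log axis) by expected count per gene, in bins of 5 counts, for each of the 4 libraries, with triangles at the counts of SLC11A2 (42) and SLC40A1 (49) in the proximal tubule; the height of the triangles has no meaning. Genes become fewer with rising count in the choroid plexus libraries, whereas the proximal tubule has 90 genes from 10 to 19 counts and 504 from 40 to 49.

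Of the 30 iron genes, 24 were 2-fold lower and 5 were 2-fold higher in the proximal tubule, or 80.0 and 16.7%, against 73.9 and 13.0% of all genes with a name. Their median log2 ratio was -3.38. Centred on the median of all genes, 16 were lower and 6 higher, and with mitochondrially encoded genes kept, 25 were lower and 1 higher. Of the 24, 10 were listed at 0: TF, HFE, SLC11A1, SLC39A14, BMP6, SLC48A1, SLC46A1, FLVCR2, BOLA1 and SLC22A17.

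The higher genes were SLC40A1, VPS35, SLC39A8, NCOA4 and CISD1. VPS35 was 8.21 times as high (7.93 to 8.49), with 519 against 63.3 TPM, and SLC39A8 8.71 times (6.47 to 11.9), with 7.32 against 0.840 TPM. NCOA4 was 2.33 times as high (2.24 to 2.43), and FTH1 was 5.54 times as high as NCOA4 in the proximal tubule and 52.2 times in male choroid plexus. CISD1, an iron-sulphur protein of the outer mitochondrial membrane, was 2.22 times as high (2.10 to 2.35). On the same scale, without mitochondrially encoded genes, macrophage markers added up to 198 TPM, red cell markers to 356 TPM and endothelial markers to 4.05 TPM in this library.

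The genes with a pattern nearest to each member were sought among 2446 named genes, by the distance between mean-centred log2(TPM + 1) values over the 4 libraries. For TF they were PSAP (distance 0.295), CLU (0.359) and PTGDS (0.382), 3 genes of secreted or lysosomal proteins that were likewise listed at 0 in the proximal tubule, and the same 3 came out with a pseudocount of 0.1. With TF at 0 there, nearness is set mainly by the level in the other libraries under either pseudocount, so the repeat adds no support. PTGDS, the prostaglandin D synthase of cerebrospinal fluid, went from 6204 TPM in male choroid plexus to 10349 TPM in the FACS epithelial cells.

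For FTH1 the nearest were F2R (0.106), HAX1 (0.147) and SLC30A5 (0.147), for SLC11A2 EIF6 (0.105), SLC6A8 (0.134) and PAQR5 (0.156), and for SLC40A1 TOMM7 (0.276), MRPL53 (0.323) and POMP (0.474). With a pseudocount of 0.1, 0 of the 3 genes were shared for each of these members. F2R, the nearest to FTH1, was listed at 0 in the proximal tubule, so its nearness rests on the pseudocount of 1. Such distances describe these 4 libraries alone.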

How the data were processed

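RNA of 4 pooled rat libraries was sequenced (NEBNext Ultra kit, Illumina NovaSeq, paired ends of 150 bases). The authors aligned the reads to Rnor_6.0 with STAR 2.7.2a and ran RSEM 1.3.3. The strandedness and program settings are not given in the sources used here, so antisense and near-identical genes are uncertain. For each Ensembl gene ID the authors deposited an expected count, an estimate that need not be whole, a TPM, an FPKM, which was not used, and an effective length in bases.

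Groups were taken from the sample labels. Names came from the gene lists published with the data, 1 of which was held only in part, and the RefSeq table matched 0 of the IDs. For each pair of libraries, the log2 ratio of TPM + 1 was computed over genes at 0.5 TPM or more in either. Intervals of ratios derive from exact binomial intervals of the counts at a level of 95%. Against the proximal tubule, both libraries were rescaled after 13 mitochondrially encoded genes had been removed, whereas the study mapped without these genes. With 1 library per condition no test was run.

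The members and the gene lists were chosen with earlier results of these data known. The genes named are the members, the iron genes with a name, the marker lists as sums and, for each member, the 3 genes nearest in pattern; PSAP, CLU and PTGDS are described further than that. Alternatives were pseudocounts of 0.1 and 0.5, cut-offs of 0.1, 1 and 5 TPM, CPM, centring on the median of all genes, the 10 highest genes of each library left out, mitochondrially encoded genes kept or removed, and the female library as reference. Python 3.11.15, numpy 2.4.6, pandas 2.3.3, scipy 1.17.1 and matplotlib 3.10.9 were used. Recovery of known fold changes and coverage of the counting intervals were tested on simulated counts of higher-expressed genes, drawn from male choroid plexus. Low counts and the other steps were not tested in this way.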

Additional observations from a re-analysis of the deposited data

Results flagged for a closer look

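A signal lay outside the genes named by the lists. ENSRNOG00000003872 is the unnamed ID that appeared to share reads with SLC40A1. It held an expected count of 403.4 in male choroid plexus, 324.65 in female choroid plexus, 250 in the FACS epithelial cells and 0 in the proximal tubule. Its counts in the choroid plexus libraries lay above 3.69, the upper limit of the interval for a count of 0. In the FACS epithelial cells its count was whole and SLC40A1 was at 0, while in the proximal tubule all 49 counts of the pair were given to SLC40A1. Its effective length exceeded that of SLC40A1 by 1793 bases in all 4 libraries. Levels of SLC40A1 in these files were therefore given with and without this ID.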

How the results depend on the processing

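No paired analysis was possible because each condition has 1 library, and for the same reason no library could be left out. Of the counts of genes past 2-fold or past the cut-off, 99 stayed within 1.5 times of the value given under an alternative and 19 did not. For the members, the 1 that became 2-fold higher in the female library was SLC40A1, with pseudocounts of 0.1 and 0.5, without the 10 highest genes and with centring, and the count of iron genes went from 0 to 1 with it. Against the female library in place of the male, 1 member, SLC40A1, was 2-fold lower in the FACS epithelial cells. In the same cells, the iron genes that were 2-fold lower numbered 0 without the 10 highest genes, 2 in CPM and 0 with centring, against 7, and those 2-fold higher numbered 2 with centring, against 1. In the proximal tubule the iron genes 2-fold higher numbered 1 with mitochondrially encoded genes kept and 3 without the 10 highest genes, against 5, those 2-fold lower numbered 14 without the genes listed at 0, against 24, and 1 member was left at a cut-off of 5 TPM, against 3. The member that was 2-fold higher there, SLC40A1, was no longer so with mitochondrially encoded genes kept (0 members) or once summed with ENSRNOG00000003872 (0 members). Of the members' log2 ratios, 38 stayed within their counting intervals or did not change, and 50 moved. Ratios with a count of 0, of TF in the proximal tubule and SLC40A1 in the FACS epithelial cells, have no interval. For these any change counted as moved. A reversal was called only for ratios of at least 2-fold, and 2 reversed, both in the proximal tubule. FTH1 went to 0.26 when centred on the median of all genes and SLC40A1 to -0.51 when summed. Smaller ratios also changed sign. In the FACS epithelial cells centring took FTH1 from -0.55 to 0.03, SLC11A2 from -0.50 to 0.09 and SLC40A1 from -0.18 to 0.41. In the female library centring took FTH1 from -0.14 to 0.02, and summing took SLC40A1 from 0.88 to -0.01. TF ranged from 0.29 to 0.91 in the FACS epithelial cells and from -0.23 to -0.05 in the female library. The sums with ENSRNOG00000003872 and the removal of genes listed at 0 were chosen after seeing the data. These sums cannot change TF, FTH1 or SLC11A2, whose repeated values are counted among the 38. The cause of these shifts was not tested, except that centring and the removal of the highest genes change the total or the reference by construction. Depth limits SLC40A1 most, at 0 to 49 counts a library.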

Other observations

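The genes of mitochondrial iron and iron-sulphur cluster assembly had the highest median ratio in female choroid plexus among the groups of iron genes with more than 1 named gene. All 8 with a name lay above the all-gene median of -0.16, as did 1411 of the 2390 named genes compared. Their median log2 ratio was 0.08, with a range from -0.14 to 0.29, and 0 of the 8 were past 2-fold. GLRX5, a glutaredoxin that passes clusters on, was highest among them, at 82.9 TPM in the female and 67.5 TPM in the male library, a ratio of 1.23 (1.17 to 1.29, counting error only). ISCU, the scaffold on which clusters are built, was at 140 against 135 TPM.

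In the proximal tubule, 1 of these 8 genes, CISD1, was 2-fold higher than in male choroid plexus, 6 were 2-fold lower and 1, the late assembly factor ISCA2, was within 2-fold, shares near the 12.1% higher and 71.0% lower of all genes. ISCA2 was at 0.818 times the male choroid plexus level (0.731 to 0.913). ISCU was at 54.8 against 147 TPM and ISCA1 at 5.81 against 167 TPM, all without mitochondrially encoded genes. BOLA1 was listed at 0.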
